A study of Mus musculus with 52 samples.

Results

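Lipolysis, the release of fatty acids from stored triglyceride, was followed through 6 genes: the 3 lipases Pnpla2, Lipe and Mgll, the co-activator Abhd5, the inhibitor G0s2 and the Pnpla2 relative Pnpla3. A gene's values came from the probe sets annotated to that symbol alone, and where there were several, from the probe set with the highest mean over all arrays. The 6 genes were found among 22180 genes with a probe set of their own, and 6 of 6 were among the 14911 genes tested. The study exposed marrow stromal cultures in bone-forming medium to chemicals that act on the nuclear receptors PPARγ or RXR, or that are environmental contaminants, and profiled RNA on Affymetrix Mouse Gene 2.0 ST arrays. The cultures came from female C57BL/6J mice aged 8 weeks, with marrow of 2 to 4 animals mixed into a pool. Each of 4 pools, numbered 12, 15, 19 and 20, contributed 1 array to each of 13 groups, so every group mean below has n = 4 and all values in the text follow that order of pools. The replicates are separate pools of animals.

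Naive cells were taken before induction, which began 7 days after plating. The other 12 groups shared the osteoinductive medium, with 10 nM dexamethasone, insulin at 0.5 µg/ml, ascorbate at 12.5 µg/ml and 8 mM glycerol phosphate, and were exposed for 1 or 4 days. They received vehicle (DMSO at 0.1%), Rosi at 100 nM (rosiglitazone, a PPARγ agonist), LG268 at 100 nM (LG100268, an RXR agonist), TBT at 80 nM (the organotin tributyltin), TPhP (triphenyl phosphate, used in plastics and against fire) or MEHP (a phthalate metabolite). The labels read here give no dose for TPhP or MEHP. These were primary cultures of mixed marrow origin, not a line, and insulin and a glucocorticoid were present in every induced group.

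As background, triglyceride in a lipid droplet is broken down one fatty acid at a time. Pnpla2 (ATGL) takes the first fatty acid, Lipe (hormone-sensitive lipase) acts mainly on the diglyceride that remains, and Mgll frees the last fatty acid from glycerol. Abhd5 (CGI-58) activates Pnpla2 when released from the droplet coat protein Plin1, G0s2 binds Pnpla2 and inhibits it, and Pnpla3 (adiponutrin) is a droplet protein that can bind Abhd5. Several of these genes are known PPARγ targets in adipocytes, and insulin is known to restrain lipolysis.

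The sequences just upstream of 3 members are shown because these genes lie at the ends of the timing under Rosi given below: Abhd5 and, on the probe set used, G0s2 were near their day 4 difference after 1 day, and Pnpla3 was not called until day 4. Each is the 250 bases before the start site, 5′ to 3′ on the gene's strand, from RefSeq on GRCm38.p6. Capitals mark the letters that matched a searched motif. The windows lie at chr15:84167566-84167815 on the plus strand for Pnpla3, chr9:122351366-122351615 on the plus strand for Abhd5 and chr1:193273189-193273438 on the minus strand for G0s2.
Pnpla3: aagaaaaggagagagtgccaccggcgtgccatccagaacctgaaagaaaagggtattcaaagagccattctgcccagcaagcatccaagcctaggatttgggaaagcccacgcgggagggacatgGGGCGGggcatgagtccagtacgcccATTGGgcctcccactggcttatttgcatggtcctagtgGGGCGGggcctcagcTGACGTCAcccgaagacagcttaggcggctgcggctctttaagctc
Abhd5: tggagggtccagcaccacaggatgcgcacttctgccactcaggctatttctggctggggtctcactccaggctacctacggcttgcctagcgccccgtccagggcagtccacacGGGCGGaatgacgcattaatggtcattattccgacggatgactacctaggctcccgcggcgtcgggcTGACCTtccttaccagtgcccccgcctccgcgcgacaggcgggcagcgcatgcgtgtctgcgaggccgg
G0s2: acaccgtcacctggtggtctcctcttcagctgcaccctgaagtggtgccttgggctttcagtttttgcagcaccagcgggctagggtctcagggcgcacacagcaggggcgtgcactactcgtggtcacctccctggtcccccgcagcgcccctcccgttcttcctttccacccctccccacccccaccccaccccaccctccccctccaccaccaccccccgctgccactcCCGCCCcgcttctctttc
The Pnpla3 window held the full cAMP response element TGACGTCA 46 bases upstream, a motif in 1.55% of all 32851 upstream windows of that length, searched on both strands. It also held the CCAAT letters, read on the other strand as ATTGG, 99 bases upstream (33.9% of windows) and GGGCGG at 125 and 61 bases upstream (32.7% of windows). The Abhd5 window held the nuclear receptor letters AGGTCA, read on the other strand as TGACCT, 69 bases upstream (14% of windows). The G0s2 window held the GC box alone among the motifs searched, read as CCGCCC 18 bases upstream.

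All 6 members had an entry, with 8 windows between them, and the GC box GGGCGG was found for each of the 6 genes and in 6 of the 8 windows. The E-box CACGTG (6.02% of all windows) lay upstream of Lipe and Mgll, as did the FOXO letters TGTTTAC (3.17%), and AGAACA, part of a glucocorticoid response element (16.1%), lay upstream of Mgll. The PPAR:RXR element DR1, searched as AGGTCA repeated after 1 base, was in 0 of the 8 windows and in 0.0335% of all windows. The LXR:RXR element DR4, the same letters repeated after 4 bases, was in 0 of 8 and 0.0152% of all, and both contain AGGTCA itself. TTGCNNAA, the C/EBP letters, was also in 0 of 8 (9.56% of all). A match describes letters, and no match means only that those letters are not in this window.

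Array medians lay between 3.97 and 4.15 on the log2 scale, and no pair of arrays was identical. Of the 9 adipocyte markers measured from a list of 10, the mean level was 5.64 in naive cells, 6.95 in vehicle at day 4 and 10.58 with Rosi at day 4, where 9 of 9 were called higher than vehicle. Against vehicle at day 4, LG268 had 6, TBT 8, TPhP 9 and MEHP 9 of these 9 markers higher; Lep, the leptin gene, lay under the median of all values, 4.05, in every group but Rosi, TPhP and MEHP at day 4. Macrophage markers (11 of 12 measured) averaged 9.21 with Rosi at day 4, where 11 of 11 were lower than vehicle, and about 10.0 to 10.4 in the other groups. Osteoblast markers averaged 8.40 in vehicle and 6.54 with Rosi at day 4, and of 9 measured, 7 were lower than vehicle with Rosi, 2 with LG268, 6 with TBT, 5 with TPhP and 6 with MEHP. Osteoclast markers averaged 7.04 in vehicle and 5.95 to 6.28 with the 5 chemicals, with 3 to 5 of 7 lower. Of 9 stromal markers, 6 were lower with Rosi and 1 with TPhP, while 3 were higher with LG268 and 2 with TBT. Neutrophil markers were lower for 8 of 12 with LG268 and 5 with TBT, and endothelial markers higher for 5 of 6 with TBT. In such bulk RNA, more cells of a type and more RNA per cell cannot be told apart, and the part of these markers in the results on the 6 genes was not tested.

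**Figure D1:**
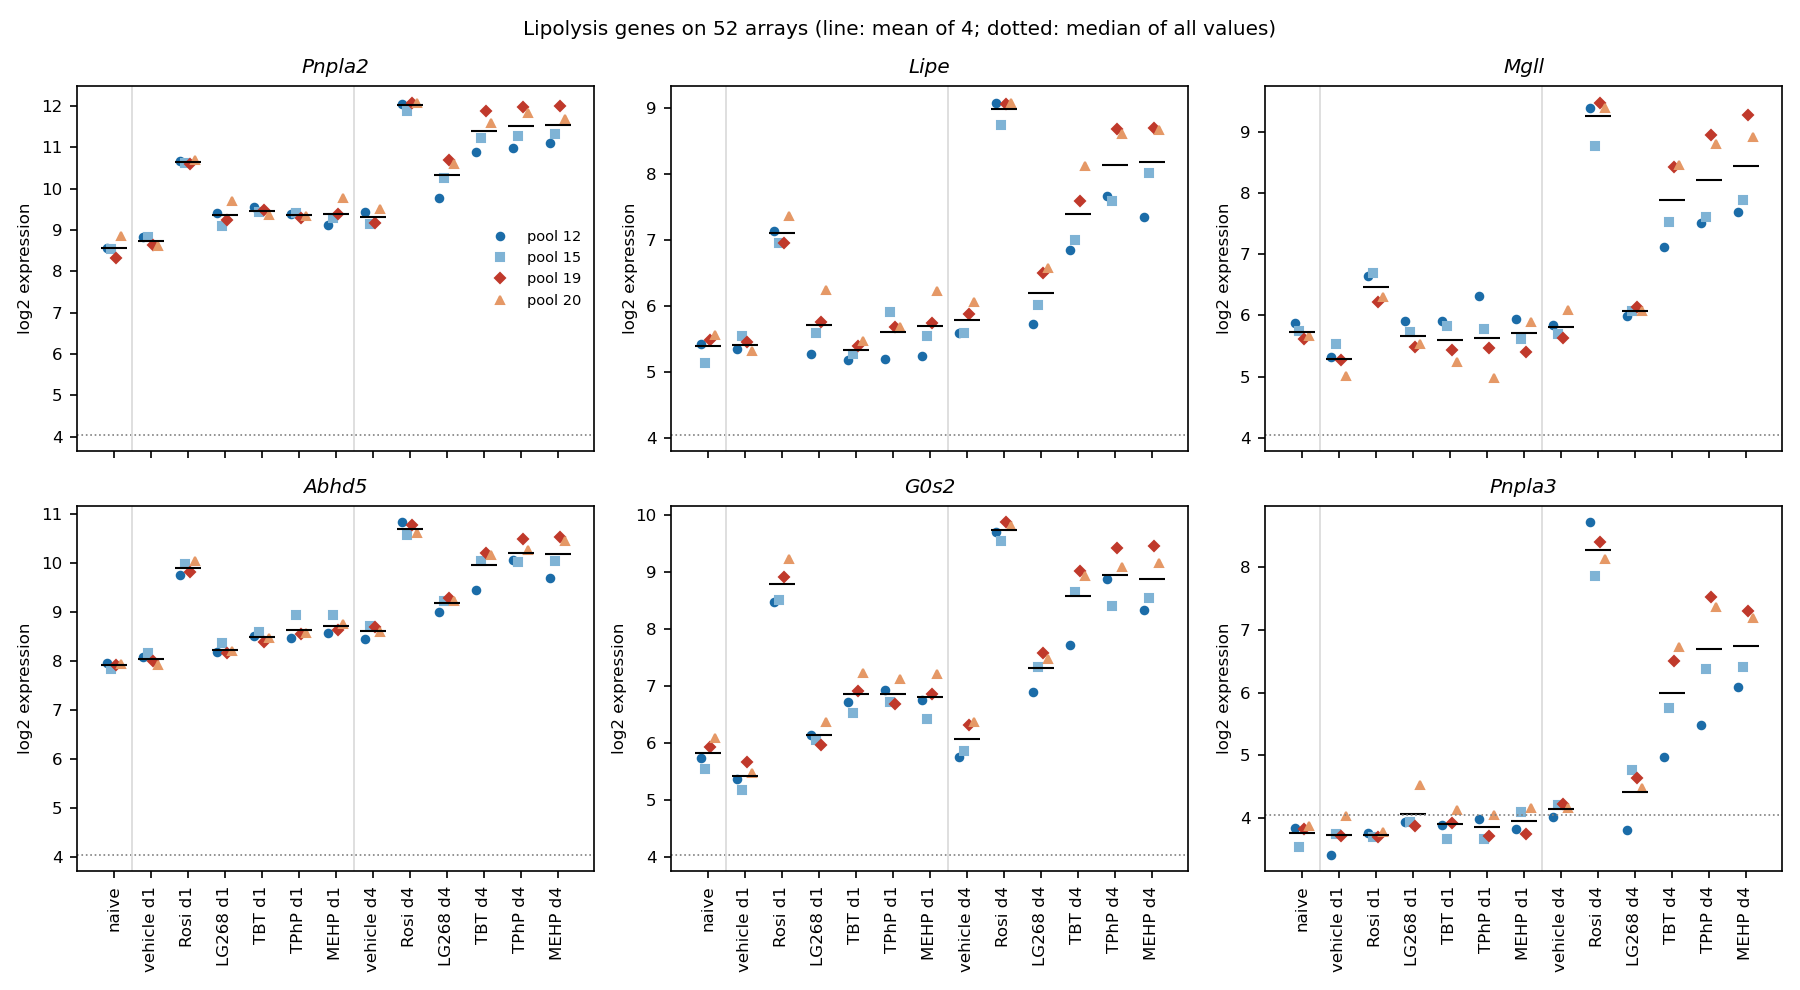
Log2 level of each of the 6 genes (vertical axis) in the 13 groups (horizontal axis), with 1 marker per pool, a line at the mean of 4 and a dotted line at the median of all values, 4.05. The highest group mean of every gene was Rosi at day 4, and Pnpla3 stayed near the bottom of its range in naive cells and all day 1 groups.

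Rosi at day 4 had the highest mean of the 13 groups for each of the 6 genes. Its 4 arrays lay above every array of the next group for Lipe, Abhd5, G0s2 and Pnpla3, and overlapped the next group for Pnpla2 and Mgll. The day 4 groups of TPhP, MEHP and TBT came next and overlapped each other in order for Pnpla2, Lipe, Mgll, Abhd5 and Pnpla3. G0s2 differed in that order, since Rosi at day 1 stood between MEHP and TBT at day 4. Levels of different genes come from different probe sets and are not set against each other.

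Without any of the 5 chemicals, Pnpla2 and Abhd5 were higher after 4 days in osteoinductive medium than in naive cells. Vehicle against naive cells at day 1 gave 0 of 6 genes called at an adjusted p of 0.05 (limma), where 17.7% of all genes tested were called in either direction; at an unadjusted p under 0.05, the same fit called 0. Fitting the compared arrays alone called 1, Mgll, at -0.44. At day 4, vehicle was higher than naive cells for 2 of 6 genes, where 17.4% of all genes were called higher, so this count does not set the members apart. Pnpla2 read 8.56, 8.54, 8.32 and 8.85 in naive cells and 9.43, 9.14, 9.16 and 9.51 in vehicle at day 4, with no overlap, a difference of 0.74 ± 0.19 (SE, limma, adjusted p = 0.00258). Abhd5 read 7.97, 7.84, 7.93 and 7.95 in naive cells and 8.46, 8.73, 8.69 and 8.59 in vehicle at day 4, again with no overlap, a difference of 0.70 ± 0.14 (adjusted p = 0.000117). Lipe (0.39 ± 0.26), Mgll (0.09 ± 0.30), G0s2 (0.25 ± 0.23) and Pnpla3 (0.39 ± 0.30) were not called.

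Between vehicle at day 1 and day 4, 2 of 6 genes were higher at day 4, where 4.60% of all genes were. Pnpla2 differed by 0.59 ± 0.19 (adjusted p = 0.0334) and Abhd5 by 0.57 ± 0.14 (adjusted p = 0.00344). G0s2 differed by 0.65 ± 0.23, with an adjusted p of 0.0599, or 0.00403 with the pool as a block. The Pnpla2 call was lost without pool 15, 19 or 20 (adjusted p = 0.0839, 0.0797 and 0.211), and the Abhd5 call without pool 20 (0.0602). Cell type markers moved over the same days: from day 1 to day 4 in vehicle, 5 of 9 adipocyte markers were higher and 1 lower (median difference 1.54), 6 of 7 osteoclast markers were higher (1.495) and 3 of 6 B lymphocyte markers were lower (-0.92). Against naive cells, vehicle at day 4 had 4 of 9 adipocyte and 6 of 7 osteoclast markers higher and 5 of 6 B lymphocyte markers lower. In that comparison 5 of 9 stromal and 4 of 9 osteoblast markers were higher as well. Their part in the Pnpla2 and Abhd5 differences was not tested.

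One day of Rosi raised 5 of the 6 genes above vehicle, and all 3 lipases were among them, where 4.16% of all genes tested were called higher. The inhibitor G0s2 read 5.38, 5.19, 5.68 and 5.48 in vehicle and 8.48, 8.51, 8.91 and 9.24 with Rosi, 3.35 ± 0.23 on the log2 scale or 10.2-fold (adjusted p = 1.91e-14). Every Rosi array lay above every vehicle array. Its other probe set, with lower values, had means of 4.61 in vehicle and 5.72 with Rosi, a difference of 1.11 ± 0.18 (adjusted p = 2.42e-05). The size of the G0s2 change relative to the other members therefore depends on the probe set. Pnpla2 read 8.82, 8.84, 8.63 and 8.61 in vehicle and 10.66, 10.62, 10.60 and 10.70 with Rosi, a difference of 1.92 ± 0.19 or 3.79-fold (adjusted p = 5.35e-10). Its co-activator Abhd5 read 8.08, 8.17, 8.01 and 7.93 in vehicle and 9.77, 9.99, 9.82 and 10.05 with Rosi, a difference of 1.86 ± 0.14 or 3.63-fold (adjusted p = 7.72e-14). Neither gene had overlapping groups, so the transcripts of the first lipase, its activator and its inhibitor were all higher after 1 day.

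The lipases of the later steps were also higher at day 1. Lipe read 5.35, 5.54, 5.45 and 5.32 in vehicle and 7.13, 6.95, 6.96 and 7.37 with Rosi, a difference of 1.69 ± 0.26 (adjusted p = 8.6e-06). Mgll read 5.32, 5.54, 5.28 and 5.01 in vehicle and 6.65, 6.69, 6.21 and 6.30 with Rosi, a difference of 1.18 ± 0.30 (adjusted p = 0.00686). The groups did not overlap for either gene, but the Mgll call was lost without pool 15 (adjusted p = 0.0508) or pool 20 (0.0669). Pnpla3 read 3.41, 3.74, 3.71 and 4.03 in vehicle and 3.76, 3.70, 3.69 and 3.77 with Rosi, within the vehicle range. All 4 arrays of each group lay under the median of all values, 4.05, where a small rise may not show. The Pnpla3 difference was 0.01 ± 0.30, with a 95% interval of -0.60 to 0.61 and an adjusted p of 0.993. It changed sign when arrays were centred on their medians or pool 12 was left out.

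The other chemicals called few members at day 1, and G0s2 was called for TBT, TPhP and MEHP on the probe set used. TBT had 1 of 6 genes higher than vehicle (0.496% of all genes), TPhP 2 (0.181%) and MEHP 2 (0.362%), with LG268 at 0 of 6 (0.241% in either direction). At an unadjusted p under 0.05 the same fit called 3 each for TBT, TPhP and MEHP, and 2, Pnpla2 and G0s2, for LG268. G0s2 read 6.72, 6.54, 6.92 and 7.24 with TBT, 6.93, 6.73, 6.69 and 7.13 with TPhP and 6.75, 6.42, 6.86 and 7.22 with MEHP, all above the highest vehicle array. Its differences were 1.42 ± 0.23 for TBT (adjusted p = 0.000193), 1.44 ± 0.23 for TPhP (0.000371) and 1.38 ± 0.23 for MEHP (0.000812, or 0.0758 without pool 20). With LG268, G0s2 read 6.15, 6.06, 5.97 and 6.38, also above every vehicle array. That difference of 0.71 ± 0.23 had an adjusted p of 0.574, and of 0.023 with the pool as a block, which made it the 1 member called for LG268 at day 1. The other G0s2 probe set was nearer its vehicle mean of 4.61 in these groups, at 4.71 with TBT, 4.91 with TPhP, 4.84 with MEHP and 4.75 with LG268. Averaging both probe sets changed no call, but the other probe set alone gave no call: 0.10 ± 0.18 for TBT (adjusted p = 1.00), 0.31 ± 0.18 for TPhP (0.952) and 0.23 ± 0.18 for MEHP (0.905). The count of members called at day 1 is then 0 for TBT and 1, Abhd5, for TPhP and MEHP.

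Abhd5 was the other member called at day 1 outside Rosi. It read 8.46, 8.95, 8.55 and 8.58 with TPhP and 8.57, 8.94, 8.64 and 8.76 with MEHP, above every vehicle array. The difference was 0.68 ± 0.14 for MEHP (adjusted p = 0.00466), lost without pool 15, 19 or 20 (0.0999, 0.0759 and 0.346). For TPhP it was 0.59 ± 0.14 (adjusted p = 0.0401), and this call ended after cyclic loess (0.063), after centring (0.062), with no filter (0.06), with the compared arrays alone (0.0996) and without pool 15 (0.427), 19 (0.3) or 20 (0.831). Abhd5 differed from vehicle by 0.19 ± 0.14 with LG268 and 0.45 ± 0.14 with TBT, neither of them called. With the compared arrays alone, Abhd5 was called for TBT (adjusted p = 0.0318).

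Pnpla2 was above every vehicle array in each of these 4 groups, although it was not called in any. It read 9.40, 9.09, 9.25 and 9.69 with LG268 and 9.56, 9.43, 9.49 and 9.36 with TBT. Its differences were 0.63 ± 0.19 for LG268 (adjusted p = 0.32), 0.73 ± 0.19 for TBT (0.0631), 0.63 ± 0.19 for TPhP (0.304) and 0.66 ± 0.19 for MEHP (0.125). With the pool as a block, TBT reached 0.014 and MEHP 0.0355, so TBT then had 2 members called and MEHP 3. With the compared arrays alone, Pnpla2 was called for TBT (adjusted p = 0.00417), TPhP (0.0172) and MEHP (0.0498). It was also called for TBT with the stricter filter (0.044) and for MEHP without pool 12 (0.034). Lipe, Mgll and Pnpla3 were not called in these 4 groups at day 1, with differences from -0.09 (Lipe with TBT) to 0.43 (Mgll with MEHP).

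After 4 days of Rosi, 6 of 6 genes were higher than vehicle, where 21.3% of all genes tested were. Pnpla2 read 9.43, 9.14, 9.16 and 9.51 in vehicle and 12.05, 11.87, 12.06 and 12.08 with Rosi, a difference of 2.70 ± 0.19 or 6.52-fold (adjusted p = 3.62e-15). Lipe read 5.60, 5.60, 5.88 and 6.06 in vehicle and 9.08, 8.74, 9.06 and 9.08 with Rosi, a difference of 3.21 ± 0.26 or 9.23-fold (adjusted p = 1.39e-13). Mgll read 5.85, 5.70, 5.62 and 6.09 in vehicle and 9.39, 8.77, 9.48 and 9.39 with Rosi, a difference of 3.44 ± 0.30 or 10.9-fold (adjusted p = 6.12e-13). The transcripts of all 3 lipases were thus higher, with every Rosi array above every vehicle array; lipolysis itself was not measured.

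The regulators were higher as well at day 4. Abhd5 read 8.46, 8.73, 8.69 and 8.59 in vehicle and 10.84, 10.58, 10.79 and 10.63 with Rosi, a difference of 2.09 ± 0.14 or 4.26-fold (adjusted p = 4.89e-16). G0s2 read 5.75, 5.86, 6.31 and 6.38 in vehicle and 9.71, 9.55, 9.88 and 9.81 with Rosi, a difference of 3.66 ± 0.23 or 12.7-fold (adjusted p = 3.17e-16). Neither pair of groups overlapped. Pnpla3, the member not called at day 1, had the largest difference of the 6 here. It read 4.01, 4.21, 4.22 and 4.15 in vehicle and 8.72, 7.86, 8.41 and 8.13 with Rosi, a log2 difference of 4.13 ± 0.30 (adjusted p = 9.44e-15). Its vehicle arrays lay near the median of all values, where the arrays carry little signal, so no fold is given and the size of the difference is uncertain.

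LG268 at day 4 raised 3 of the 6 genes, the first-step enzyme, its co-activator and, on 1 of its 2 probe sets, its inhibitor, where 4.21% of all genes were higher. Pnpla2 read 9.76, 10.24, 10.68 and 10.60 with LG268, 1.01 ± 0.19 above vehicle (adjusted p = 0.000427). Abhd5 read 9.002, 9.22, 9.29 and 9.23, a difference of 0.57 ± 0.14 (adjusted p = 0.00599, or 0.0995 without pool 20). G0s2 read 6.91, 7.35, 7.59 and 7.47, a difference of 1.25 ± 0.23 (adjusted p = 0.00038). In each of these genes the LG268 arrays lay above every vehicle array. The other G0s2 probe set had a mean of 4.84 both in vehicle and with LG268, so the probe sets disagreed on this difference, and on the other one G0s2 was not called (adjusted p = 0.996). Lipe, the second lipase, differed by 0.42 ± 0.26 (95% interval -0.10 to 0.94, adjusted p = 0.378) and was not called. Mgll differed by 0.25 ± 0.30 (-0.34 to 0.85) and Pnpla3 by 0.27 ± 0.30 (-0.33 to 0.88), also not called.

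TBT, TPhP and MEHP at day 4 each raised 6 of 6 genes, where 10.6%, 11.0% and 12.1% of all genes were higher. Every array of each lay above every vehicle array for the 6 genes, but how many of all genes separate so fully was not counted. Pnpla2 read 10.87, 11.22, 11.86 and 11.57 with TBT, 10.99, 11.26, 11.97 and 11.83 with TPhP and 11.10, 11.32, 12.004 and 11.67 with MEHP. The differences from vehicle were 2.07 ± 0.19, 2.20 ± 0.19 and 2.21 ± 0.19 in that order. Adjusted p-values (limma) were 8.49e-11, 1.35e-11 and 1.36e-11. The fit shares 1 spread over all groups, and the Pnpla2 SD was 0.43, 0.46 and 0.40 here against 0.19 in vehicle. Over the alternative fits, the highest adjusted p (limma) was 0.00117, 0.00465 and 0.00298. For the first lipase the highest TPhP and MEHP arrays came within the range of Rosi.

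Lipe, which cuts the diglyceride, read 6.85, 7.00, 7.60 and 8.12 with TBT, 7.66, 7.59, 8.69 and 8.61 with TPhP and 7.35, 8.02, 8.69 and 8.67 with MEHP. Its differences were 1.61 ± 0.26 (adjusted p = 1.2e-05), 2.36 ± 0.26 (4.6e-09) and 2.40 ± 0.26 (2.44e-09). None of these arrays reached the lowest Rosi array. Mgll, the lipase of the last step, read 7.12, 7.52, 8.43 and 8.47 with TBT, 7.51, 7.61, 8.95 and 8.81 with TPhP and 7.68, 7.88, 9.27 and 8.92 with MEHP. Its differences were 2.07 ± 0.30 (adjusted p = 1.42e-06), 2.40 ± 0.30 (5.04e-08) and 2.62 ± 0.30 (5.86e-09).

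The co-activator Abhd5 read 9.46, 10.06, 10.21 and 10.17 with TBT, 10.06, 10.03, 10.50 and 10.28 with TPhP and 9.70, 10.05, 10.54 and 10.45 with MEHP. Its differences were 1.36 ± 0.14 (adjusted p = 4.62e-10), 1.60 ± 0.14 (9.48e-12) and 1.57 ± 0.14 (1.46e-11), the smallest of the 6 genes for each of these chemicals on the probe sets used. G0s2, the inhibitor, read 7.72, 8.65, 9.03 and 8.94 with TBT, 8.88, 8.42, 9.43 and 9.09 with TPhP and 8.34, 8.55, 9.45 and 9.17 with MEHP. Differences were 2.51 ± 0.23 (adjusted p = 1.09e-10), 2.88 ± 0.23 (4.73e-12) and 2.80 ± 0.23 (9.06e-12). Pnpla3 had the widest SD of the 6 genes with TBT (0.79) and TPhP (0.95), and Mgll with MEHP (0.78). Pnpla3 read 4.98, 5.76, 6.50 and 6.72 with TBT, 5.48, 6.38, 7.53 and 7.37 with TPhP and 6.09, 6.42, 7.30 and 7.19 with MEHP. Its differences were 1.84 ± 0.30 (adjusted p = 1.43e-05), 2.55 ± 0.30 (2.09e-08) and 2.60 ± 0.30 (9.9e-09). On the other G0s2 probe set, day 4 means were 6.50 with Rosi, 5.48 with TBT, 5.81 with TPhP and 5.88 with MEHP, all above the vehicle mean. Differences there were 0.64 ± 0.18 with TBT, 0.97 ± 0.18 with TPhP and 1.04 ± 0.18 with MEHP (adjusted p = 0.00929, 8.6e-05 and 2.3e-05), called like those of the probe set used but smaller than those of the other 5 members.

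**Figure D2:**
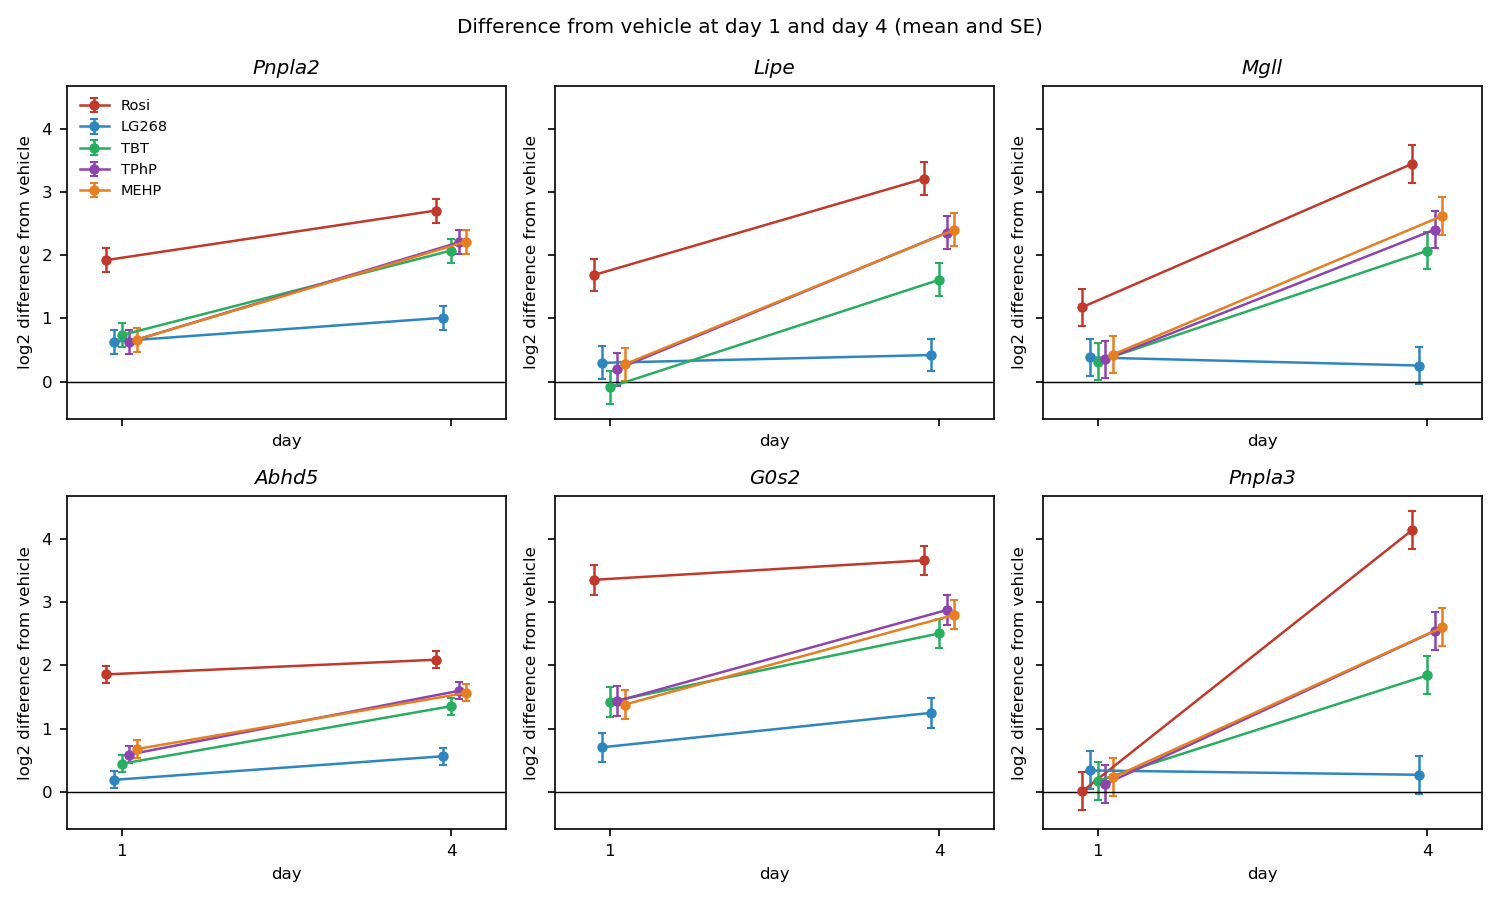
Difference from vehicle of the same day (vertical axis, log2, bars are limma's SE) at day 1 and day 4 (horizontal axis) for the 6 genes under each chemical. With Rosi, Abhd5 and, on the probe set used, G0s2 were nearly level between the days and Pnpla3 rose from 0.01 to 4.13; with TBT, TPhP and MEHP all 6 genes lay higher at day 4.

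The members differed in timing under Rosi. Testing the day 4 effect minus the day 1 effect called 4 of 6 genes higher, where 14.4% of all genes were. Pnpla3 gained 4.13 ± 0.42 (adjusted p = 4.35e-09), Mgll 2.26 ± 0.42 (4.88e-05), Lipe 1.52 ± 0.37 (0.00129) and Pnpla2 0.78 ± 0.27 (0.0229). The Pnpla2 call was lost without pool 15, 19 or 20 (0.122, 0.0771 and 0.0551). Abhd5 gained 0.23 ± 0.19 (95% interval -0.15 to 0.62) and G0s2 0.31 ± 0.33 (-0.36 to 0.97), neither called. As a share of the day 4 difference, the day 1 difference with Rosi was 91.6% for G0s2, 88.9% for Abhd5, 71.0% for Pnpla2, 52.6% for Lipe, 34.2% for Mgll and 0.22% for Pnpla3. The G0s2 share is that of the probe set used, and was 67.3% on the other. The Pnpla3 share rests on day 1 arrays under the median of all values, where a small rise may not show.

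With TBT, TPhP and MEHP the effect at day 4 exceeded that at day 1 in most members. TBT had 5 of 6 genes higher (1.37% of all genes), TPhP 6 (3.66%) and MEHP 6 (4.29%), while LG268 had 0 of 6 (0.0805% in either direction), or 0 at an unadjusted p under 0.05, with member values from -0.13 (Mgll) to 0.55 (G0s2). Lipe gained 1.70 ± 0.37 with TBT, 2.16 ± 0.37 with TPhP and 2.12 ± 0.37 with MEHP (adjusted p = 0.00758, 0.000273 and 0.00037). G0s2 gained 1.08 ± 0.33 with TBT, where its adjusted p was 0.0765, or 0.00339 with the pool as a block. With TPhP and MEHP it gained 1.44 ± 0.33 (0.00613) and 1.42 ± 0.33 (0.00589). The day 1 share of the G0s2 difference was 56.8% for TBT, 49.96% for TPhP and 49.3% for MEHP on the probe set used and 16.2%, 31.5% and 22.5% on the other, where the gain with TPhP was not called (adjusted p = 0.143). The number of members called for TBT fell to 0 without pool 15, 19 or 20 in turn, and was 6 without pool 12. Leaving out pool 19 cost Mgll, Abhd5 and G0s2 their calls for TPhP and MEHP, leaving 3 each, and leaving out pool 20 left 3 for TPhP and 4 for MEHP.

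Chemicals with a stated dose were also set against each other, in 6 comparisons for each gene with p-values adjusted over all genes within each comparison. Rosi and LG268 were both at 100 nM. At day 1, LG268 was lower than Rosi for 4 of 6 genes (3.61% of all genes lower). These were G0s2 (-2.65 ± 0.23, adjusted p = 5.68e-11), Abhd5 (-1.67 ± 0.14), Lipe (-1.39 ± 0.26) and Pnpla2 (-1.29 ± 0.19). The G0s2 value is that of the probe set used. On its other probe set the means were 4.75 with LG268 and 5.72 with Rosi, a smaller difference that was still called. Mgll differed by -0.79 ± 0.30 (95% interval -1.39 to -0.20) and Pnpla3 by 0.33 ± 0.30 (-0.27 to 0.94), without a call; with the compared arrays alone Mgll was called (0.00669). At day 4, LG268 was lower for 6 of 6 genes (21.5% of all genes), from -1.53 ± 0.14 for Abhd5 to -3.86 ± 0.30 for Pnpla3.

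TBT was used at 80 nM, so its comparisons with Rosi and LG268 are at unequal doses. TBT was lower than Rosi for 4 of 6 genes at day 1 (1.66% of all genes lower), with G0s2 at -1.93 ± 0.23, Lipe at -1.77 ± 0.26, Abhd5 at -1.41 ± 0.14 and Pnpla2 at -1.19 ± 0.19. The other G0s2 probe set had means of 4.71 with TBT and 5.72 with Rosi, a smaller difference that was still called. Mgll (-0.86 ± 0.30) was called only with the compared arrays alone (adjusted p = 0.0223). At day 4 it was lower for 6 of 6 (18.0% of all genes), from -0.63 ± 0.19 for Pnpla2 to -2.29 ± 0.30 for Pnpla3. The Pnpla2 difference had an adjusted p of 0.00689, or 0.0628 without pool 12. TBT against LG268 called 0 of 6 members at day 1 (0.00% of all genes), or 1 at an unadjusted p under 0.05, with G0s2 at 0.72 ± 0.23 (95% interval 0.25 to 1.19), a difference of -0.038 on its other probe set. At day 4, TBT was higher than LG268 for 6 of 6 genes (2.55% of all genes higher), from 0.79 ± 0.14 for Abhd5 to 1.81 ± 0.30 for Mgll on the probe sets used. That count was 3 with the compared arrays alone, and without pool 20 it was 1, Pnpla2. TPhP and MEHP, whose doses are not given, had day 4 differences from vehicle side by side of 2.36 and 2.40 for Lipe and 2.55 and 2.60 for Pnpla3. All of these comparisons against vehicle share the vehicle arrays of that day.

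**Figure D3:**
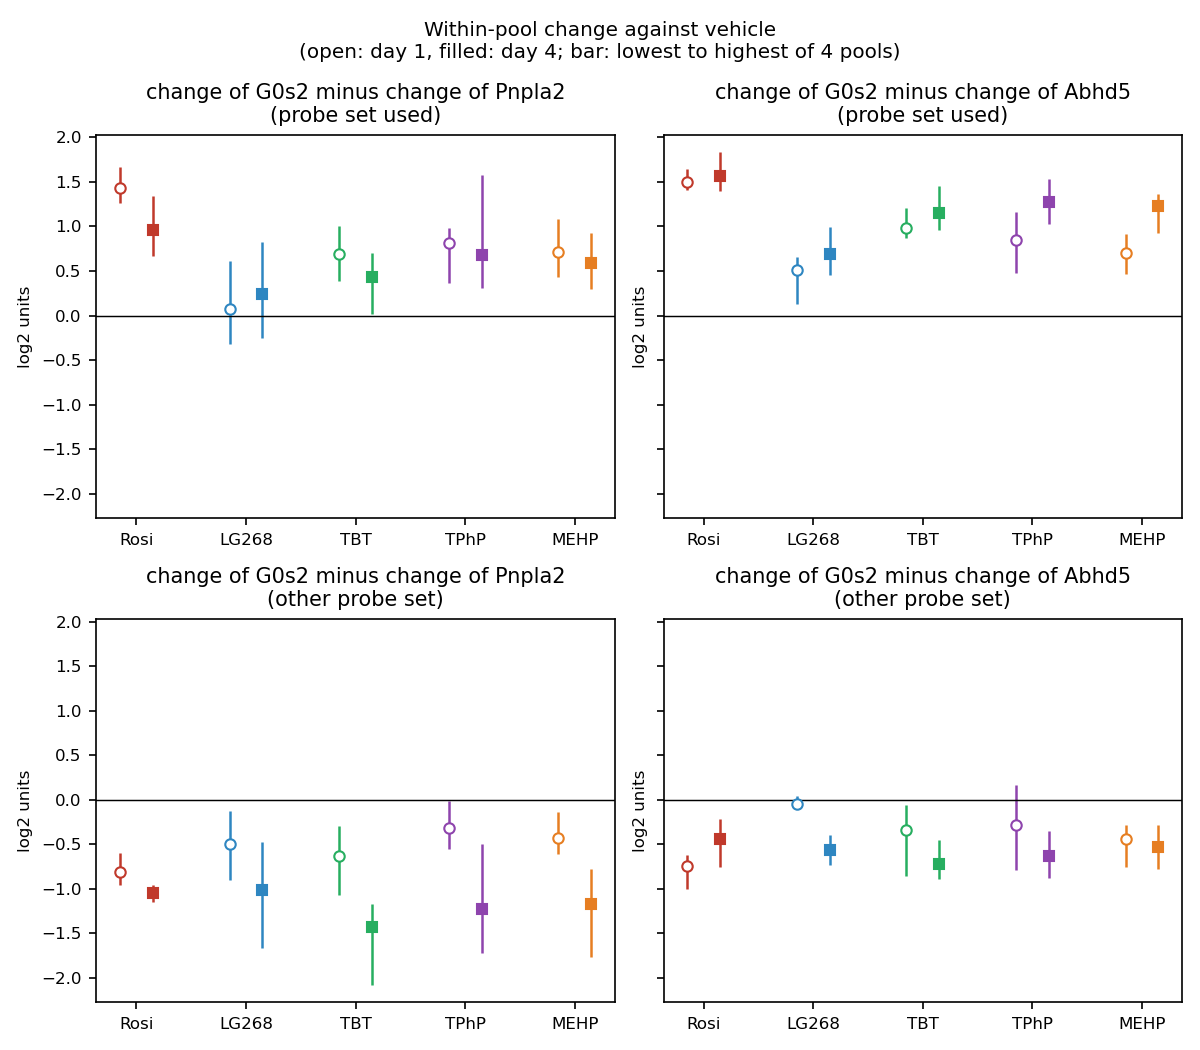
Log2 difference from vehicle of G0s2 minus that of Pnpla2 (left), and of G0s2 minus that of Abhd5 (right; vertical axes), for the G0s2 probe set used (top) and its other probe set (bottom), by chemical (horizontal axis) and day (open symbols day 1, filled day 4), as the mean of 4 pools with a bar from the lowest to the highest pool. Every mean lay above 0 on the probe set used and below 0 on the other, so the sign depends on the probe set.

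The difference from vehicle of G0s2, the inhibitor, was set against those of its target Pnpla2 and of Abhd5 within each pool. This comparison was chosen after the values were seen and is given without a test, and its sign depends on the G0s2 probe set. On the probe set used, with Rosi, the log2 difference of G0s2 exceeded that of Pnpla2 by 1.43 ± 0.20 (SD, n = 4) at day 1 and by 0.96 ± 0.28 at day 4, in 4 of 4 pools each. At day 1 the excess was 0.69 with TBT, 0.81 with TPhP and 0.72 with MEHP, and at day 4 it was 0.43, 0.68 and 0.59, above 0 in 4 of 4 pools each. LG268 gave 0.07 at day 1 and 0.24 at day 4. Set against Abhd5, the excess of G0s2 was above 0 in 4 of 4 pools for each chemical on each day, from 0.51 (LG268, day 1) to 1.57 (Rosi, day 4). On the other probe set the difference of G0s2 lay below that of Pnpla2 in 4 of 4 pools for each chemical on each day, with means of -0.81 ± 0.16 at day 1 and -1.05 ± 0.09 at day 4 with Rosi. Against Abhd5 the means there ran from -0.05 ± 0.063 (LG268, day 1) to -0.74 ± 0.18 (Rosi, day 1), with 1 pool above 0 for LG268 and for TPhP at day 1. Whether G0s2 changed more or less than Pnpla2 or Abhd5 therefore cannot be read from these arrays. Because each value compares changes on a log scale, it carries no statement about the amounts of the 2 transcripts.

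**Figure D4:**
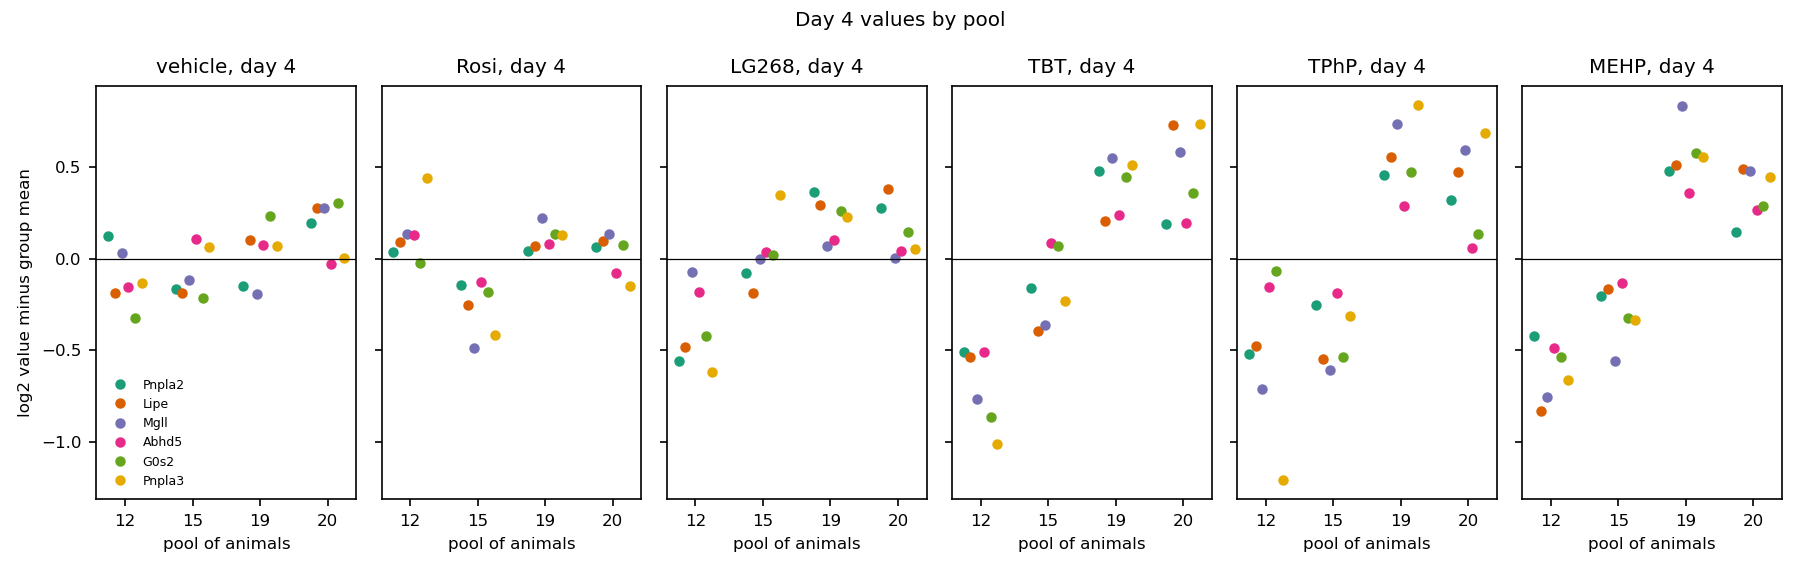
Log2 level minus the mean of its group (vertical axis) of the 6 genes in the 4 pools (horizontal axis: 12, 15, 19 and 20) in the day 4 groups, with 1 marker per array. With TBT, TPhP and MEHP, both arrays of pools 19 and 20 lay above both arrays of pools 12 and 15 for every gene.

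Pools differed in a shared way at day 4, a pattern noticed after the values were seen and given without a test. With TBT, TPhP and MEHP, the arrays of pools 19 and 20 lay above both arrays of pools 12 and 15 for 6 of 6 genes each, 18 of 18 in all. Over all genes tested, this order held for 23.7% with TBT, 21.6% with TPhP and 25.6% with MEHP. The median member difference between those pools was 0.87, 0.90 and 0.93, where all genes tested had medians of -0.01, -0.02 and -0.04. With LG268 the order held for 5 of 6 genes (21.7% of all genes), with Rosi for 3 (21.1%) and in vehicle for 2 (30.3%). Mgll with MEHP shows the size of it, at 7.68 and 7.88 in pools 12 and 15 and 9.27 and 8.92 in pools 19 and 20.

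The mean of the 9 adipocyte markers showed the same order of pools in every day 4 group except Rosi. It read 9.46, 9.80, 10.54 and 10.45 with TPhP, 9.46, 9.85, 10.53 and 10.45 with MEHP, and 10.68, 10.28, 10.67 and 10.66 with Rosi. In vehicle at day 4 it read 5.61, 6.91, 7.51 and 7.79, a difference of 1.40 between the pairs of pools, where the 6 genes had a median difference of 0.08. Endothelial markers had the same order of pools in vehicle (difference 0.40), TPhP (0.96) and MEHP (0.70), as did B lymphocyte markers (0.25, 0.25 and 0.28), stromal markers in vehicle (0.35) and LG268 (0.057), and osteoclast markers in vehicle (0.66). Osteoblast markers differed by -0.77 with TBT, -1.31 with TPhP and -0.86 with MEHP between the pairs. The part of these cell types in the pool differences of the 6 genes was not tested.

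Genes around lipolysis were counted from lists of pathway members. Their counts stand beside those over all genes tested: with Rosi, 4.16% were higher and 3.08% lower at day 1, and 21.3% and 27.7% at day 4. At day 4, 2.26% were lower with LG268, 9.42% with TBT, 7.94% with TPhP and 11.7% with MEHP, with the shares higher given above. Of 12 lipid droplet coat and gatekeeper genes tested, 5 were higher and 0 lower with Rosi at day 1, including Plin1 (4.73 ± 0.42), which holds Abhd5 at the droplet, Cidec (4.67 ± 0.80), which promotes droplet fusion, Fitm2 (2.17 ± 0.28), Plin4 (1.87 ± 0.26) and Plin2 (0.82 ± 0.17). At day 4, Rosi, TBT, TPhP and MEHP each had 10 higher and 1 lower, Plin3 in each case (-0.72 ± 0.14 with Rosi), with list medians of 3.23, 1.16, 1.44 and 2.01. LG268 at day 4 had 4 higher and 1 lower (median 0.54), the higher ones being Plin1 (2.03 ± 0.42), Plin4 (1.67 ± 0.26), Cav1 (0.79 ± 0.25) and Plin2 (0.61 ± 0.17) and the lower one Plin3 (-0.50 ± 0.14). The median over all genes tested lay between -0.05 and -0.02 for every chemical at day 4.

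Of 27 genes of the cAMP and insulin control of lipolysis, 10 were higher and 1 lower with Rosi at day 1, and 17 and 4 at day 4 (median 1.00). Among them at day 4 were Pde3b (4.56 ± 0.31), the phosphodiesterase through which insulin lowers cAMP, Hcar1 (3.85 ± 0.29), the lactate receptor that restrains lipolysis, Adcy5 (4.18 ± 0.24), an adenylyl cyclase, and Akap1 (1.91 ± 0.16). Genes that lower cAMP and a gene that makes it were thus both higher. The lower genes were Prkar2a at day 1 (-0.38) and, at day 4, the kinase subunits Prkacb (-0.72) and Prkar1a (-0.43), Gnai2 (-0.69) and Prkg1 (-0.72). At day 4 the counts were 9 higher and 0 lower with LG268, 16 and 1 with TBT, 13 and 2 with TPhP, and 13 and 3 with MEHP; Prkacb was among the lower genes with TBT (-0.30), TPhP (-0.38) and MEHP (-0.29). Hcar1 was the 1 gene of this list called at day 1 for TBT (2.29), TPhP (1.56) and MEHP (1.70).

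Of 18 genes that handle released fatty acid and glycerol, 11 were higher and 0 lower with Rosi at day 1, and 14 and 0 at day 4 (median 2.17). The day 1 examples were Angptl4 (2.98 ± 0.18), Aqp7 (3.49 ± 0.24), the glycerol channel of adipocytes, Fabp4 (2.62 ± 0.20), a fatty acid carrier, and Dgat2 (2.85 ± 0.38), which rebuilds triglyceride. At day 4, 10 were higher with LG268, 15 with TBT, 13 with TPhP and 14 with MEHP, and 0 were lower in each.

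Of 21 other lipases tested, 2 were higher with Rosi at day 1, Lpl (0.84 ± 0.10), which acts on circulating triglyceride, and Pnpla8 (0.78 ± 0.14), a phospholipase of the Pnpla2 family. At day 4, 7 were higher and 4 lower (median 0.19), with the carboxylesterase Ces1d (3.32 ± 0.27) among the higher ones and Ppt1 (-1.05), Lipa (-0.85), the acid lipase of the lysosome, Pnpla7 (-0.92) and Daglb (-0.59) the lower. Those Rosi counts of 21 stand beside 21.3% and 27.7% of all genes and do not set this list apart with Rosi. At day 4, LG268 had 1 higher, Lpl (0.77 ± 0.10), and TBT had Lpl (1.03 ± 0.10), Pnpla8 (0.75 ± 0.14) and Ddhd2 (0.68 ± 0.13) higher and Ppt1 (-0.47 ± 0.17) lower. TPhP had 6 of the 21 higher and 2 lower and MEHP 6 and 1, where 11.0% and 12.1% of all genes were higher. Of 20 transcriptional regulators of lipase genes, 14 were higher and 4 lower with Rosi at day 4 (median 0.56), with Ppara (3.44 ± 0.33), Mlxipl (3.295 ± 0.26), Srebf1 (2.27 ± 0.19) and Cebpa (1.51 ± 0.15) among the higher ones. The lower ones were Snai1 (-0.68), a known repressor of Pnpla2, Tfe3 (-0.43), Sp1 (-0.21) and Foxo3 (-0.21), and Snai1 was also lower with TBT (-0.52), TPhP (-0.58) and MEHP (-0.56). Day 4 counts for these 20 regulators were 10 higher and 1 lower with TBT, 11 and 2 with TPhP, and 11 and 1 with MEHP. With LG268 at day 4, 5 were higher, Srebf1 (1.54 ± 0.19), Mlxipl (1.22 ± 0.26), Foxo1 (0.87 ± 0.18), Nr1h3 (0.72 ± 0.15) and Sp1 (0.27 ± 0.07); Foxo1 is a known activator of Pnpla2 transcription that insulin restrains.

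Patterns over the 13 group means were compared by Pearson's r, as a description, since the groups share pools. The most like genes were sought among the genes tested, leaving out provisional symbols such as Gm with a number or Rik. The gene most like Pnpla2 was Plin1 (r = 0.993), that most like Lipe was Pex16 (0.993), and that most like Mgll was Fcor (0.995). Abhd5 and G0s2 both had Lgals12, an adipocyte droplet galectin, as the most like gene (0.996 and 0.989), and Pnpla3 had Cox8b (0.996). Over the 52 single arrays Lgals12 and Cox8b ranked 1 again for these members, while Plin1 ranked 6 for Pnpla2, Pex16 2 for Lipe and Fcor 4 for Mgll. The genes that ranked 1 there were Lgals12, Aldh1a7 and Pdhb. Among the members themselves, Pnpla2 and Abhd5 (0.984) and Abhd5 and G0s2 (0.983) were most alike. The least alike were G0s2 and Pnpla3 (0.811), with G0s2 read on the probe set used.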

How the data were processed

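RNA of 52 cultures was measured on 52 single-colour arrays, 13 groups of 4 pools. The values used are those the authors deposited, on a log2 scale, for 41345 probe sets. Per the submitters' processing notes they worked in R 3.3.1 with oligo; how background was corrected and arrays were normalized is not given in the sources used here. Of the probe sets, 23521 named 1 gene, 1814 several and 16010 none; the first kind gave 22180 genes, of which 1082 had several probe sets. A gene was tested where at least 4 of 52 arrays were above the table's median of 4.05, leaving 14911; Pnpla3 passed with 27 arrays, the other 5 members with 52. Signal over background and the number of arrays limit the precision.

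A group-means model was fitted with limma 3.58.1 (R 4.3.3) over all 52 arrays. Tests were two-sided, p-values were adjusted by Benjamini-Hochberg across the 14911 genes, and those under 0.05 were called. SEs come from that model, which shares 1 spread over all groups, and SDs from 4 arrays. Member SDs with TBT, TPhP and MEHP at day 4 were mostly wider than that shared spread, so precision for these groups can be overstated. Overlap of arrays between groups and counts at an unadjusted p under 0.05 were read for the members only, with no share over all genes. Same-numbered arrays come from the same pool per the labels. With group means removed, 45 of 52 arrays had their highest mean correlation with the arrays of their own pool in other groups. The model with the pool as a block is therefore given where it changes a call. The fit was tested on simulated data with independent noise, for Rosi against vehicle at day 1 alone, with 200 genes changed. It recovered 50% of log2 changes of 0.5 and 92% of changes of 1 there, and recovery in the other comparisons was not simulated. Shared pools were not simulated. Alternatives were cyclic loess, median centring, averaged probe sets, no filter on low values, a higher filter, the compared arrays alone and leaving out each pool. Reading G0s2 from its other probe set was added after seeing the data.

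From each pathway list, up to 4 called genes with the smallest adjusted p were eligible to be named per comparison, and all where 5 or fewer were called; genes behind a count of 5 or fewer in 1 direction were named after their values were seen. The most similar genes were those with the highest r over group means, with provisional symbols left out. The members and lists were chosen with earlier results of these data known. Upstream windows were matched by symbol to RefSeq entries of GRCm38.p6, and figures and tables were made with Python 3.11.15, pandas 2.3.3 and matplotlib 3.10.9.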

Additional observations from a re-analysis of the deposited data

Results flagged for a closer look

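Of 78 gene and group combinations, 6 held an array that stood apart from the other 3 by Dixon's 95% limit; chance gives about 1 in 20. With Rosi at day 4, the array of pool 15 was the lowest for Pnpla2 (11.87, others 12.05 to 12.08), Lipe (8.74, others 9.06 to 9.08) and Mgll (8.77, others 9.39 to 9.48). The same array had the lowest mean of the adipocyte markers (10.28, others 10.66 to 10.68) and of the endothelial markers (5.43, others 6.90 to 7.31) and the highest of the macrophage markers (10.13, others 8.78 to 9.09), and their part in its values was not tested. With LG268 at day 1, pool 15 was the highest for Abhd5 (8.38, others 8.17 to 8.21) and pool 20 the highest for Pnpla3 (4.52, others 3.86 to 3.94). In naive cells, pool 15 was the lowest for Pnpla3 (3.53, others 3.81 to 3.87).

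The effect of a chemical differed between day 4 and day 1 by limma's interaction test in 21 of 30 gene and chemical combinations. Over all genes tested, 14.4% were called higher in this test with Rosi, 1.37% with TBT, 3.66% with TPhP and 4.29% with MEHP. With LG268, 0.0805% were called in either direction. For Rosi the day 4 effect was larger by 0.78 for Pnpla2, 1.52 for Lipe, 2.26 for Mgll and 4.13 for Pnpla3. For TBT it was larger by 1.34 for Pnpla2, 1.70 for Lipe, 1.75 for Mgll, 0.91 for Abhd5 and 1.67 for Pnpla3. Without pool 15, 19 or 20 in turn, 0 members were called for TBT. With TPhP the excess was 1.57 for Pnpla2, 2.16 for Lipe, 2.05 for Mgll, 1.01 for Abhd5, 1.44 for G0s2 and 2.42 for Pnpla3. With MEHP it was 1.55 for Pnpla2, 2.12 for Lipe, 2.19 for Mgll, 0.89 for Abhd5, 1.42 for G0s2 and 2.37 for Pnpla3. Leaving out a pool also lost calls for Rosi, TPhP and MEHP, as given above.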

How the results depend on the processing

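Of 144 gene and comparison combinations, 88 were called, 62 of them under all 11 planned settings, where 0 called values changed sign. Reading G0s2 from its other probe set, an alternative chosen after seeing the data, gave 0 calls for TBT, 1 for TPhP and 1 for MEHP at day 1. G0s2 then reversed for LG268 at day 4 (-0.0028), for the LG268 difference between days (-0.14) and for TBT against LG268 at day 1 (-0.038). With the pool as a replicate block, 1 member was called for LG268 and 2 for TBT at day 1; the block made 5 calls, those given beside the results, and lost none. Taking only the arrays compared gave 1 call for vehicle against naive cells at day 1, 3 for TBT at day 1 and 3 for TBT against LG268 at day 4. The stricter filter gave 2 for TBT at day 1, and cyclic loess, median centring and no filter each gave 1 for TPhP at day 1. Leaving out 1 pool moved the number of members called from 0 to 2 for vehicle between days, 1 to 2 for TPhP and 0 to 3 for MEHP at day 1, 0 to 6 for the TBT difference between days, 3 to 6 for that of TPhP and of MEHP, and 1 to 6 for TBT against LG268 at day 4. Uncalled values changed sign as follows, and the cause was not tested: Lipe in vehicle against naive cells at day 1 was -0.014 after loess, and Pnpla3 was 0.047 there and -0.00093 with Rosi at day 1 after centring. Leaving out 1 pool gave ranges of -0.11 to 0.11 (Lipe) and -0.12 to 0.089 (Pnpla3) for vehicle against naive cells at day 1, -0.021 to 0.14 (Mgll) at day 4, -0.10 to 0.098 for Pnpla3 with Rosi and -0.021 to 0.19 with TPhP at day 1, -0.27 to 0.0099 (Mgll) and -0.21 to 0.15 (Pnpla3) for the LG268 difference between days, and -0.12 to 0.0082 for Mgll in TBT against LG268 at day 1. Signal and the number of arrays limit Pnpla3 most, since its day 1 arrays lay near or under the table's median.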

Other observations

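Adcy5, an adenylyl cyclase whose product cAMP drives lipolysis in adipocytes, differed widely between the chemicals at day 4. It was singled out after its values were seen. Against vehicle it differed by 3.21 ± 0.24 with Rosi at day 1 (limma, adjusted p = 8.51e-14) and by 4.18 ± 0.24 at day 4. At day 4 the difference was 2.84 ± 0.24 with TPhP and 2.80 ± 0.24 with MEHP, and 0.37 ± 0.24 with TBT (adjusted p = 0.279) and -0.14 ± 0.24 with LG268 (adjusted p = 0.806). TBT at 80 nM differed from Rosi at 100 nM by -3.81 ± 0.24 at day 4 (adjusted p = 3.33e-16), where Pnpla2 differed by -0.63 ± 0.19.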
